A study of Mus musculus with 95 samples.

Results

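The genes described are 9 genes of mural cells, the cells that wrap blood vessels, out of 39179 genes in the deposited cortex tables. They were taken by name, with earlier results of these data known, and matched by Ensembl identifier. All 9 passed the filter on low counts at both ages. Myh11 (ENSMUSG00000018830), Acta2 (ENSMUSG00000035783) and Tagln (ENSMUSG00000032085) stand for the smooth muscle of arteries and arterioles. Pdgfrb (ENSMUSG00000024620), Rgs5 (ENSMUSG00000026678), Vtn (ENSMUSG00000017344), Kcnj8 (ENSMUSG00000030247) and Abcc9 (ENSMUSG00000030249) stand for pericytes, the mural cells of capillaries, and Notch3 (ENSMUSG00000038146) is shared by both kinds of cell.

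Smooth muscle cells form the contractile rings of arteries, and pericytes sit along capillaries inside the basement membrane that they share with the endothelium. Endothelial cells recruit both through platelet-derived growth factor B, which binds the receptor encoded by Pdgfrb, and Notch ligands on the endothelium act on Notch3 in mural cells. In brain, mural cells set local blood flow and help to maintain the blood-brain barrier, while larger arteries run in the meninges on the cortical surface and enter the tissue from there.

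Messenger RNA was measured in the cerebral cortex of C57BL/6 mice of both sexes at 6 and 10 months. The knock-in mice were heterozygous for a huntingtin allele named Q20, Q50, Q92 or Q140 after the length of its CAG repeat, whose expansion causes Huntington's disease. Q20 and Q50 mice shared cages with wild-type mice, which form a group each (WTwithQ20 and WTwithQ50), whereas the Q92 and Q140 lines each lived among their own. Wild types from Q92 or Q140 cages were not analysed here, so the Q92 and Q140 lines were tested against both wild-type groups, averaged, and share these libraries as controls.

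The 95 libraries (48 from the younger and 47 from the older mice) fall into 24 sets that share line, age and sex. Each set holds 4 libraries, apart from male Q140 mice at 10 months with 3. Summed counts lay between 30.3 M and 41.1 M per library with a median of 34.1 M, and 9.08% to 14.7% of counts were mitochondrial. Markers of cortical neurons summed to 4984 to 6678 CPM (counts scaled to library size). Markers of striatal neurons ranged from 314 to 1527 CPM and those of choroid plexus from 14.6 to 2707 CPM. The labels do not say that each library is a separate animal, and p-values therefore measure only the spread between these libraries. In whole tissue, fewer cells of a type and less RNA per cell cannot be told apart.

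Levels between genes were compared as deposited FPKM (fragments per kilobase, scaled to library size), which account for gene length. Pericyte genes held both the highest and the lowest levels of the 9. Vtn, which encodes the adhesion protein vitronectin, had a median of 35.5 FPKM over the 95 libraries (27.4 to 51.6), and Rgs5, a brake on G protein signalling that is abundant in brain pericytes, had a median of 30.4 FPKM (23.3 to 36.0). Pdgfrb, the growth factor receptor, lay at a median of 5.59 FPKM. Abcc9 and Kcnj8, which encode the regulatory and the pore part of an ATP-sensitive potassium channel, lay lower, at medians of 2.05 and 1.67 FPKM. Notch3 had a median of 2.32 FPKM.

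The arterial genes were the most variable. Acta2 and Tagln were intermediate in level, while Myh11 was near the low end. Acta2, the smooth muscle actin, had a median of 7.39 FPKM (4.39 to 16.8). Tagln, the actin-binding protein transgelin, had a median of 4.42 FPKM (2.5 to 9.88). Myh11, the smooth muscle myosin heavy chain, had a median of 2.04 FPKM (1.02 to 3.85). Between libraries of the same line, age and sex, the SD of log2 CPM was 0.31 for Myh11, 0.34 for Acta2 and 0.35 for Tagln, larger than in 75.7%, 77.9% and 79.0% of the 18187 genes tested over both ages. The pericyte genes had SDs between 0.097 for Rgs5 and 0.18 for Kcnj8, and that of Notch3 was 0.18. The least count behind any of these values was 80, for Kcnj8.

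Acta2 shares much of its coding sequence with other actin genes, and how shared reads were counted is not given in the sources used here. Tagln overlaps Pcsk7 on the opposite strand, which had a median of 6.52 FPKM, while Abcc9 and Notch3 overlap antisense genes, and whether counting used strand is not given either.

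Windows of RefSeq promoter sequence (assembly GRCm38.p6, 250 bases before to 50 after the start) were found for 6 of the 9 genes, namely Acta2, Rgs5, Vtn, Kcnj8, Abcc9 and Notch3. Contractile genes of smooth muscle are known to be controlled by serum response factor through CArG elements. A CArG-like element was searched as CCNNNNNNGG with at least 5 of the 6 inner bases A or T, a pattern that reads alike on both strands. The Acta2 window held 2 such elements, whose first bases lie at -84 and -34 from the start, and the other 5 windows held none. Of 32851 promoter windows of the same length 9.98% held at least 1. With all 6 inner bases A or T, the element was in none of the 6 windows and in 1.63% of all. The 250 bases before the start of Acta2 (chr19:34255374-34255623, minus strand) are shown beside those of Rgs5 (chr1:169655251-169655500, plus strand), as an arterial and a pericyte gene that moved differently between groups, with the CArG-like elements in capitals.
Acta2: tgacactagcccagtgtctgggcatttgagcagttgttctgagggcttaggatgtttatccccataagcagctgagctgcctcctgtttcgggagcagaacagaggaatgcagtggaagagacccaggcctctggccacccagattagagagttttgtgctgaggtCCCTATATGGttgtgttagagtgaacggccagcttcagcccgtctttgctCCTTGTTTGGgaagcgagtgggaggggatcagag
Rgs5: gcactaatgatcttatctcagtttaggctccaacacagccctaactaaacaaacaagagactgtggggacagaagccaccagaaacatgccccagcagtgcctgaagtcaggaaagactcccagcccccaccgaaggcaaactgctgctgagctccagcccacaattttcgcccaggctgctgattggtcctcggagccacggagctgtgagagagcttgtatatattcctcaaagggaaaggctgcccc

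**Figure D1:**
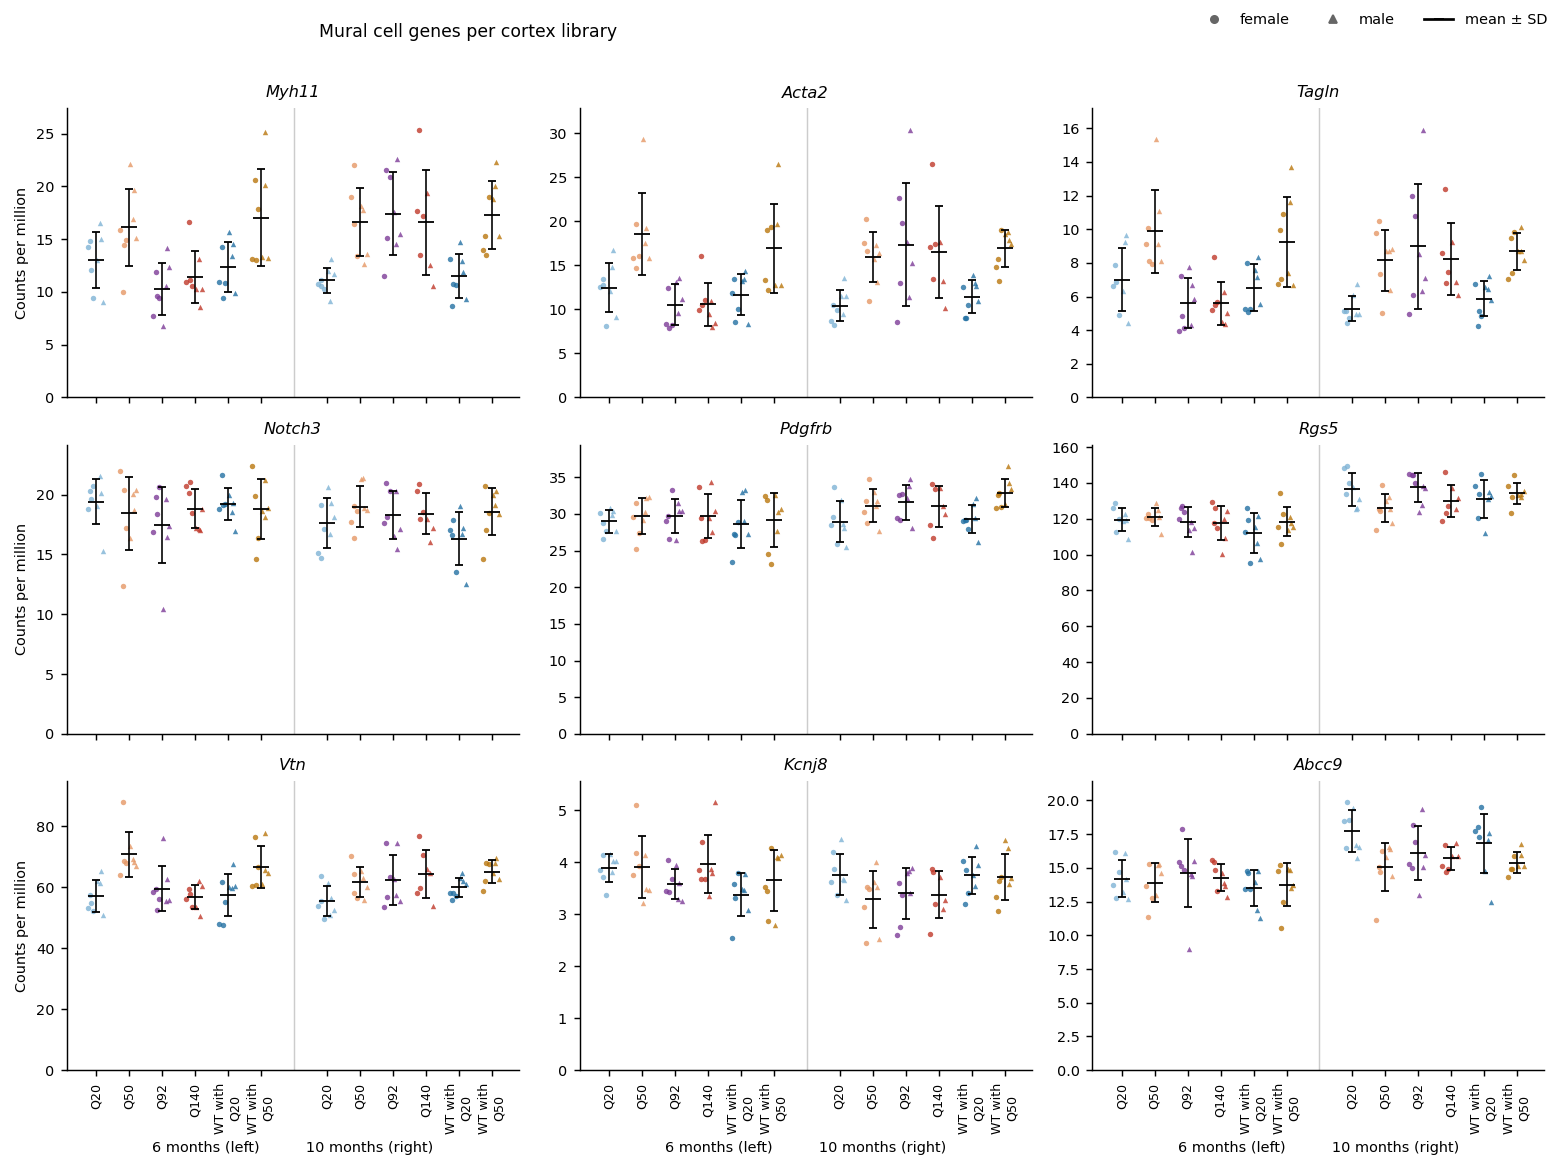
CPM of the 9 genes (vertical axes, from 0) in each of the 95 libraries, by line and housing at 6 and 10 months, each point a library. The arterial genes Myh11, Acta2 and Tagln move between groups and spread widely within them, whereas Rgs5 and Pdgfrb stay within narrow bands.

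The next values are CPM, which serve to compare libraries for 1 gene. At 6 months, Acta2 ran from 8.13 to 16.7 CPM in Q20 mice (median 12.6), from 14.7 to 29.3 in Q50 mice (16.8), from 7.85 to 13.6 in Q92 mice (10.4) and from 8.0 to 16.1 in Q140 mice (10.3). WTwithQ20 mice had 8.34 to 14.4 CPM (12.5) and WTwithQ50 mice 12.2 to 26.5 CPM (16.2). The order from high to low by mean log2 CPM was Q50, WTwithQ50, Q20, WTwithQ20, Q140 and Q92, and the sole step between neighbours larger than the SD of both was from WTwithQ50 down to Q20. Both groups from cages with Q50 animals had higher medians than the other 4 groups at this age.

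At 10 months Acta2 ran from 8.23 to 13.6 CPM in Q20 mice (median 10.2), from 11 to 20.3 in Q50 mice (16.5), from 8.54 to 30.4 in Q92 mice (16.5) and from 10.1 to 26.5 in Q140 mice (17.1). WTwithQ20 mice had 9.05 to 13.9 CPM (11.7) and WTwithQ50 mice 13.2 to 19.1 CPM (17.6). The Q92 and Q140 lines, the lowest at 6 months, stood beside WTwithQ50 at 10 months, and the single step larger than both SDs was from Q50 down to WTwithQ20. Both groups from cages with Q20 animals were at the low end. Myh11 and Tagln followed Acta2. The mean log2 level of the 3 arterial genes spanned 0.76 between the highest and lowest group at 6 months and 0.68 at 10 months. The mean of the 5 pericyte genes, which ordered the groups differently from each other, spanned 0.14 and 0.095. Taken singly, the arterial genes spanned 0.72 to 0.83 at 6 months and 0.625 to 0.72 at 10 months. Single pericyte genes spanned 0.056 (Pdgfrb) to 0.32 (Vtn) at 6 months and 0.13 (Rgs5) to 0.24 (Abcc9) at 10 months.

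The pericyte genes and Notch3 lay within narrow ranges across the lines. Rgs5 had group medians between 114.2 CPM in WTwithQ20 mice and 120.8 CPM in Q50 mice at 6 months, and between 125.4 CPM in Q50 mice and 139.0 CPM in Q92 mice at 10 months. Pdgfrb medians lay between 28.1 and 32.7 CPM over all 12 groups of line and age. Abcc9 medians lay between 13.7 and 17.6 CPM, Kcnj8 medians between 3.27 and 3.94 CPM and Notch3 medians between 16.9 and 19.9 CPM. For none of these 5 genes was any step between neighbouring groups larger than the SD of both. Vtn differed from them: at 6 months its medians were 68.4 CPM in Q50 mice and 65.1 CPM in WTwithQ50 mice, against 56.2 to 59.9 CPM in the other 4 groups, and the step below WTwithQ50 exceeded both SDs.

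The first question was whether a knock-in line differs from wild type, tested per gene with edgeR's quasi-likelihood test, Benjamini-Hochberg adjustment over all genes and a threshold of 0.05. In Q92 mice at 6 months Myh11 and Tagln fell, and 2 of the 9 genes were called while 7.83% of all genes were called (4.53% lower). Myh11 ran from 6.76 to 14.2 CPM in Q92 mice (median 10.1, n = 8), against 9.41 to 25.2 CPM in wild types (median 13.3, n = 16). The ranges overlapped, and 7 of 8 Q92 libraries lay below the wild-type median. Its log2 difference was -0.50 ± 0.14 (SE, adjusted p = 0.018).

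Tagln ran from 3.96 to 7.77 CPM in Q92 mice (median 5.34) and from 5.10 to 13.7 CPM in wild types (median 7.30), a log2 difference of -0.47 ± 0.15 (adjusted p = 0.046). Again 7 of 8 Q92 libraries were below the wild-type median. Acta2 was not called, at -0.42 ± 0.15 (adjusted p = 0.072). The 5 pericyte genes and Notch3 were not called, with log2 differences from -0.12 for Notch3 to 0.10 for Abcc9, and the 95% interval for Rgs5 was -0.05 to 0.12.

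The Q92 calls depended on which wild types were used. Against WTwithQ50 mice alone all 3 arterial genes were called, at -0.73 for Myh11, -0.69 for Acta2 and -0.73 for Tagln (adjusted p between 0.0035 and 0.0095, with 4.22% of all genes called). Against WTwithQ20 mice alone none of the 9 was called, while 6.91% of all genes were: Myh11 differed by -0.27 (adjusted p = 0.42), Acta2 by -0.15 (0.73) and Tagln by -0.22 (0.59). The Tagln call was also lost in 22 of the 48 fits that left out 1 library, the Myh11 call in 2 of 48, and both were lost within females alone and within males alone, where the log2 differences were -0.49 and -0.51 for Myh11 and -0.52 and -0.44 for Tagln.

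Q140 mice at 6 months gave differences of similar size that did not pass the test, with 0 of 9 genes called and 3.52% of all genes called. Tagln ran from 4.38 to 8.37 CPM in Q140 mice (median 5.35), against 5.10 to 13.7 CPM in wild types (7.30), at -0.47 ± 0.15 on the log2 scale (adjusted p = 0.085). Acta2 differed by -0.41 ± 0.15 (0.13) and Myh11 by -0.34 ± 0.14 (0.20), with unadjusted p-values of 0.0041, 0.0085 and 0.019 for Tagln, Acta2 and Myh11. Of 8 Q140 libraries, 7 lay below the wild-type median for each of the 3 genes. Without the female Q140 replicate 4, the highest Q140 library for Acta2, Acta2 and Tagln were called, and against WTwithQ50 alone all 3 were (1.63% of all genes).

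At 10 months the arterial genes of these lines were on the other side of wild type, again without a call (0 of 9 in each line, with 0.853% of all genes called for Q92 and 1.2% for Q140). Myh11 ran from 11.5 to 22.7 CPM in Q92 mice (median 16.6), against 8.67 to 22.4 CPM in wild types (median 13.7), at 0.30 ± 0.13 on the log2 scale (adjusted p = 0.26). Acta2 differed by 0.32 ± 0.15 (0.32) and Tagln by 0.33 ± 0.15 (0.29) in Q92 mice. In Q140 mice the differences were 0.24 ± 0.13 for Myh11, 0.26 ± 0.16 for Acta2 and 0.21 ± 0.15 for Tagln (adjusted p between 0.46 and 0.60). Set against WTwithQ20 alone, Q92 mice were higher by 0.60 to 0.62 for the 3 genes and all were called (8.68% of all genes), whereas against WTwithQ50 alone the differences were 0.01 to 0.05 and none was called (0.0449% of all genes).

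Q20 and Q50 mice were set against their cage-mate wild types, and none of the 9 genes was called at either age. For Q20 mice 0.0169% of all genes were called at 6 months and 4.35% at 10 months. For Q50 mice these shares were 0.0226% and 0.0561%. The arterial genes differed by 0.08 to 0.10 on the log2 scale in Q20 mice at 6 months and by -0.16 to -0.06 at 10 months, and in Q50 mice by -0.09 to 0.13 at 6 months and -0.10 to -0.06 at 10 months. The 95% interval for Acta2 in Q20 mice was -0.25 to 0.43 at 6 months and -0.50 to 0.23 at 10 months, and in Q50 mice -0.19 to 0.45 and -0.43 to 0.26.

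**Figure D2:**
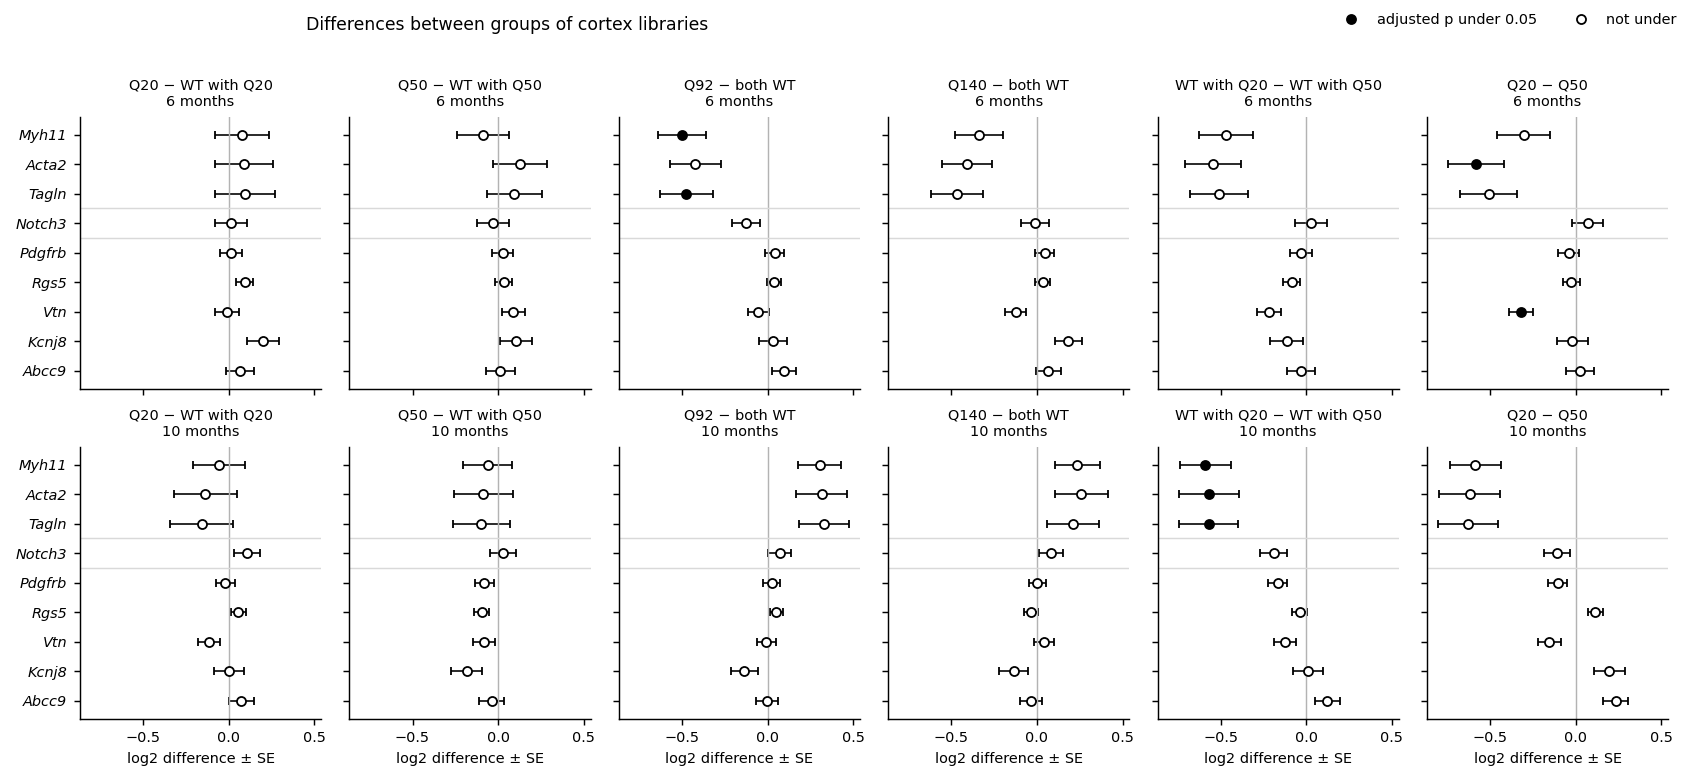
log2 difference ± SE (horizontal axes) of each of the 9 genes (rows) in each comparison at 6 months (upper panels) and 10 months (lower panels), with calls at an adjusted p under 0.05 marked as the legend gives. The arterial genes in the upper rows leave 0 by up to 0.63, while most pericyte genes stay within 0.2 of it.

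The wild-type groups share a genotype and differ by cage, and cage and cohort cannot be told apart in them, nor from line in the comparisons of Q92 and Q140 mice. At 10 months all 3 arterial genes were lower in WTwithQ20 than in WTwithQ50 mice, and 3 of 9 genes were called, against 7.03% of all genes (3.63% lower). Tagln ran from 4.24 to 7.20 CPM in WTwithQ20 mice (median 6.14, n = 8), against 7.06 to 10.1 CPM in WTwithQ50 mice (median 8.71, n = 8), at -0.57 ± 0.17 on the log2 scale (adjusted p = 0.037). Myh11 ran from 8.67 to 14.8 CPM in WTwithQ20 mice (median 11.3) and from 13.5 to 22.4 CPM in WTwithQ50 mice (17), at -0.59 ± 0.15 (0.013). Acta2 differed by -0.57 ± 0.18 (0.039).

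For each of the 3 genes the ranges barely overlapped, and all 8 WTwithQ20 libraries lay below the WTwithQ50 median. Pdgfrb lay just outside the threshold: it ran from 26.2 to 32.2 CPM in WTwithQ20 mice and from 30.8 to 36.5 CPM in WTwithQ50 mice, at -0.17 ± 0.055 (adjusted p = 0.052). Pdgfrb was called in 23 of 58 alternative fits, most of which left out 1 library. Notch3 differed by -0.19 ± 0.078 (0.12), Vtn by -0.12 ± 0.065 (0.25), and Rgs5, Kcnj8 and Abcc9 by -0.04, 0.01 and 0.12. The Myh11 call held whichever 1 of the 47 libraries was left out, whereas those of Acta2 and Tagln were each lost in 7 of 47. No gene was called within either sex alone, where the log2 differences were -0.52 in females and -0.65 in males for Myh11, -0.61 and -0.53 for Acta2, and -0.69 and -0.46 for Tagln.

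At 6 months the same wild-type groups differed by -0.47 ± 0.16 for Myh11, -0.54 ± 0.16 for Acta2 and -0.51 ± 0.17 for Tagln. None of the 9 genes was called (adjusted p between 0.22 and 0.26 for these 3, with 0.0903% of all genes called), although 7 or 8 of 8 WTwithQ20 libraries lay below the WTwithQ50 median for each. Vtn differed by -0.22 ± 0.070 (adjusted p = 0.25). The change of the wild-type difference between the ages was -0.12 for Myh11, -0.03 for Acta2 and -0.06 for Tagln, with 95% intervals from -0.55 to 0.45, and no gene of the 9 was called (5.16% of all genes).

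Q20 and Q50 mice, which come from the same cages as these wild types but are other libraries, were set against each other after the wild-type difference had been seen. These lines differ in huntingtin allele as well as in cage and cohort, which cannot be told apart here. At 6 months Acta2 and Vtn were lower in Q20 mice, and 2 of 9 genes were called, against 1.76% of all genes. Vtn ran from 50.7 to 65.3 CPM in Q20 mice (median 56.2) and from 64.1 to 87.8 CPM in Q50 mice (median 68.4), at -0.32 ± 0.070 on the log2 scale (adjusted p = 0.0077). All 8 Q20 libraries lay below the Q50 median. Acta2 differed by -0.58 ± 0.16 (adjusted p = 0.049), and this call was kept in 17 of 48 fits without 1 library, where that of Vtn was kept in 48. Tagln at -0.51 ± 0.17 (0.11) and Myh11 at -0.30 ± 0.16 (0.33) were not called.

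At 10 months Q20 mice differed from Q50 mice by -0.59 ± 0.15 for Myh11, -0.62 ± 0.18 for Acta2 and -0.63 ± 0.18 for Tagln, with adjusted p-values of 0.073, 0.13 and 0.12. None of the 9 was called, with 0.342% of all genes called. All 8 Q20 libraries lay below the Q50 median for each of the 3. DESeq2's Wald test called Myh11 and Tagln here, and limma's voom called the 3 arterial genes and Abcc9.

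The arterial genes were then set against the pericyte genes within each library, as the mean log2 CPM of the 3 minus that of the 5. At 6 months this difference was -1.33 ± 0.29 in Q20 mice, -0.93 ± 0.30 in Q50 mice, -1.62 ± 0.29 in Q92 mice and -1.57 ± 0.28 in Q140 mice (SD, n = 8 each). In WTwithQ20 mice it was -1.33 ± 0.22 and in WTwithQ50 mice -0.94 ± 0.34. At 10 months it was -1.68 ± 0.22 in Q20 mice, -1.03 ± 0.33 in Q50 mice, -1.03 ± 0.44 in Q92 mice and -1.08 ± 0.34 in Q140 mice (n = 7), with -1.57 ± 0.22 in WTwithQ20 mice and -1.04 ± 0.16 in WTwithQ50 mice.

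Between Q92 mice and wild types this measure differed by -0.49 log2 units at 6 months and by 0.27 at 10 months. Between Q140 mice and wild types it differed by -0.44 and 0.23. Between the wild-type groups the shift was -0.39 at 6 months and -0.54 at 10 months. Q20 and Q50 mice lay within 0.11 of the wild types of their own cages at both ages. Counting Notch3 with the arterial or with the pericyte genes, or using log2 of FPKM plus 0.1, moved none of these by more than the SD within the groups, although the sign of the smallest, those of Q20 mice at 6 months and of Q50 mice at both ages, turned.

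**Figure D3:**
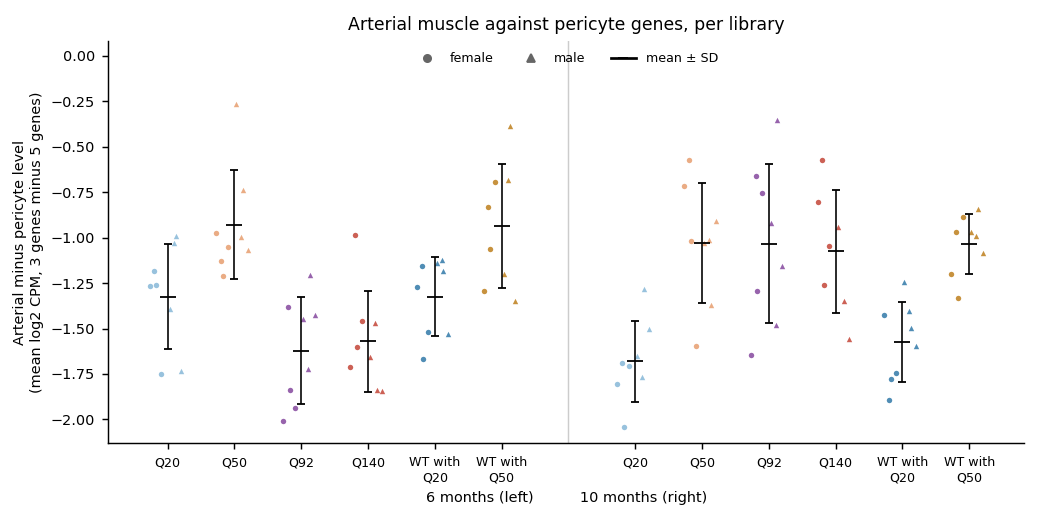
Mean log2 CPM of the 3 arterial genes minus that of the 5 pericyte genes (vertical axis) in each of the 95 libraries, by line and housing at 6 months (left) and 10 months (right). At 6 months Q92 and Q140 libraries centre near -1.6, and at 10 months the low groups are Q20 at -1.68 and WTwithQ20 at -1.57.

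Whether the effect of a line changed with age was tested as the difference between the ages. The ages are separate sets of libraries, so age cannot be told apart from cohort or handling in this test. For Q92 against wild type, the log2 difference of Myh11 was higher at 10 than at 6 months by 0.81 ± 0.19 (adjusted p = 0.0028), that of Acta2 by 0.74 ± 0.21 (0.014) and that of Tagln by 0.81 ± 0.21 (0.0079). These were 3 of 9 genes, against 9.63% of all genes (5.88% higher). The pericyte genes and Notch3 were not called, with 95% intervals of -0.10 to 0.13 for Rgs5, -0.16 to 0.13 for Pdgfrb and -0.11 to 0.22 for Vtn.

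The levels behind this are those of Q92 mice, in which mean Myh11 was 17.4 ± 3.9 CPM at 10 months and 10.3 ± 2.5 CPM at 6 months (SD, n = 8 each), while wild types had 14.4 ± 4.0 CPM and 14.7 ± 4.3 CPM (n = 16 each). The sizes were alike against WTwithQ20 alone (0.75 to 0.87, all 3 called, with 15.1% of all genes) and against WTwithQ50 alone (0.73 to 0.78), where no gene was called (adjusted p between 0.061 and 0.11, with 1.24% of all genes called). Within females the values were 0.85 to 0.90, with Myh11 called, and within males 0.63 to 0.76, with none called.

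For Q140 mice the same contrast gave 0.58 ± 0.19 for Myh11, 0.67 ± 0.22 for Acta2 and 0.68 ± 0.22 for Tagln, with adjusted p-values of 0.10, 0.085 and 0.085. None of the 9 was called (1.79% of all genes). Meningeal, striatal and cholinergic markers moved with it (7 of 12, 9 of 10 and 5 of 5 called higher), and their part in it was not tested. Kcnj8 differed by -0.32 ± 0.11 (adjusted p = 0.13). Without the female Q140 replicate 4 at 6 months all 3 arterial genes were called, and without the male Q140 replicate 2 at 10 months Myh11 and Acta2 were. None of the 9 was called for Q20 (0.693% of all genes) or Q50 (0% of all genes).

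The trend with repeat length over the 4 knock-in lines gave no call among the 9 at 6 months (1.78% of all genes) or 10 months (0.891%). The median slope of the 3 arterial genes per 100 repeats was -0.44 at 6 months and 0.46 at 10 months on the log2 scale, beside 0.00 for all genes at each age. That of the pericyte genes was 0.01 and -0.02. Each repeat length is a single line with its own cages, so repeat length, cage and cohort cannot be told apart in these slopes.

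Between the ages in wild types, the pericyte genes Rgs5 and Abcc9 were higher at 10 months and the other 7 genes were not called. The libraries of the ages are separate sets, so age cannot be told apart from cohort or handling. Rgs5 was higher at 10 months, from 112.0 to 145.1 CPM (median 133.6, n = 16), against 95.5 to 134.5 CPM at 6 months (median 115.7), by 0.20 ± 0.033 on the log2 scale (adjusted p = 3.7e-06). Abcc9, the regulatory part of the pericyte potassium channel, ran from 12.5 to 19.6 CPM at 10 months (median 15.9) and from 10.6 to 15.2 CPM at 6 months (median 13.8), a difference of 0.24 ± 0.056 (adjusted p = 0.00099). The ranges overlapped for both. These 2 of 9 genes are a share near that of all genes, of which 23% were called and 9.56% were higher.

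Pdgfrb differed by 0.10 ± 0.042 (adjusted p = 0.063), Notch3 by -0.13 ± 0.063 (0.14), Kcnj8 by 0.09 ± 0.064 (0.35), Vtn by 0.01 ± 0.048 (0.87), and the arterial genes by -0.12 to -0.01 (adjusted p between 0.53 and 0.95). The means of Rgs5 and Abcc9 were higher at 10 months in all 6 groups of line and housing, by 0.06 to 0.23 for Rgs5 and 0.11 to 0.32 for Abcc9. The Abcc9 call was lost within males alone (0.20, adjusted p = 0.19). Of 15 other pericyte genes, none was called higher at 10 months and 2 were lower, Ifitm1 at -0.44 ± 0.12 and Zic1 at -0.66 ± 0.20. The median of the 15 was -0.06. With 23% of all genes called in either direction, 2 of 15 is no result about this list. With age 4 of 12 meningeal, all 10 striatal and all 5 tested cholinergic markers were also lower in wild types, and their part in the result was not tested.

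Sex gave no call among the 9 genes at 6 months (2.37% of all genes) or 10 months (3.49%). The median difference of the arterial genes, female minus male, was -0.14 and -0.09.

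Other genes of the same cells and pathways were followed by lists. Like the members, these lists were chosen with earlier results of these data known. Between the wild-type groups at 10 months, of 17 other smooth muscle genes tested 2 were lower in WTwithQ20 mice and none higher: Pln, the regulator of the calcium pump of muscle, at -0.62 ± 0.14 and the tropomyosin gene Tpm2 at -0.40 ± 0.092. Their median was -0.28, beside 0.00 over all genes. Of 15 other pericyte genes 5 were lower and none higher, among them the transcription factor Tbx18 at -0.58 ± 0.13, the adhesion molecule Mcam at -0.28 ± 0.066 and the peptidase Anpep at -0.39 ± 0.10.

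Of the ligands that act on the Notch and growth factor receptors, Jag1 (-0.37 ± 0.089) and Dll4 (-0.49 ± 0.13) were lower in WTwithQ20 mice and Pdgfb (0.32 ± 0.093) and Pdgfa (0.18 ± 0.047) were higher. Heyl, a Notch target in mural cells, was lower at -0.45 ± 0.13. Of 12 Notch pathway genes 3 fell and none rose, and of 5 other genes of the growth factor family 2 rose and none fell. Of 10 regulators of contractile genes, the serum response factor partner Mrtfa (0.24 ± 0.051) and the signal transducer Smad3 (0.32 ± 0.056) were higher. None of 12 genes of potassium channel and vessel tone signalling was called. The share of all genes called in this comparison was 7.03%.

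In Q92 mice at 6 months, 5 of 18 other smooth muscle genes fell and none rose, with a median of -0.19. Tpm2 fell by 0.42 ± 0.095 on the log2 scale, the myosin kinase gene Mylk by 0.21 ± 0.061 and Sncg by 0.73 ± 0.14. Actg2, the other smooth muscle actin, fell by 1.56 ± 0.47 and is at 0 in some libraries. Of 15 other pericyte genes Zic1 (-1.11 ± 0.19) and Ifitm1 (-0.66 ± 0.14) fell. Zic1 was also lower, by 1.51 ± 0.39, in the change of the wild-type difference between the ages. Striatal and cholinergic markers were lower in that contrast too, and whether Zic1 RNA came from pericytes was not tested. Of 12 Notch pathway genes Dll1 (-0.39 ± 0.088) and Nrarp (-0.19 ± 0.057) fell. Mef2c (0.22 ± 0.042), a transcription factor of muscle and of cortical neurons, was the 1 of 10 contractile regulators that rose, and Abcc8 (0.21 ± 0.050), the neuronal counterpart of Abcc9, the 1 of 12 in the potassium channel and tone list. With 7.83% of all genes called in this comparison, 1 call in a list of 10 or 12 is near the share of all genes and is no result about these lists.

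Markers of neighbouring tissue moved with these results, and their part in them was not tested. Between the wild-type groups at 10 months, 7 of 12 meningeal fibroblast markers were lower in WTwithQ20 mice and none higher (median -0.60), among them the collagen gene Col3a1 at -0.94 ± 0.21 and the transporter gene Slc22a6 at -0.96 ± 0.21. Their summed level was 66.1 to 141 CPM in WTwithQ20 mice, against 108 to 167 CPM in WTwithQ50 mice. All 10 striatal markers were also lower (331 to 446 CPM, against 368 to 1111 CPM), as were all 5 cholinergic neuron markers tested (1.04 to 2.51 CPM, against 2.57 to 25.8 CPM), while none of 10 choroid plexus markers was called. Of 14 endothelial markers 4 were lower, among them Kdr at -0.37 ± 0.087 and Slco1a4 at -0.34 ± 0.065, and Ly6c1 was higher at 0.27 ± 0.078.

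Between Q20 and Q50 mice at 6 months 6 of 12 meningeal markers were lower in Q20 mice and none higher (median -0.76).

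In Q92 mice at 6 months none of the 12 meningeal markers was called (median -0.21), and their summed level was 75.1 to 166 CPM in Q92 mice, against 68.2 to 163 CPM in WTwithQ20 and 101 to 213 CPM in WTwithQ50 mice. All 10 striatal markers were lower (323 to 404 CPM, against 702.3 to 1109 CPM in WTwithQ20 and 483 to 700.9 CPM in WTwithQ50 mice), as were all 5 cholinergic markers, while 5 of 8 cortical neuron and 4 of 10 choroid plexus markers were higher. No endothelial marker was called. For the change of the Q92 effect with age, 6 of 18 other smooth muscle genes, 6 of 12 meningeal, 9 of 10 striatal and 5 of 5 cholinergic markers were called higher and 7 of 8 cortical neuron markers lower, with medians of 0.31, 0.56, 1.27, 4.0 and -0.23. For Q140 mice these markers moved in the same contrast too: 7 of 12 meningeal (median 0.72, among them Slc22a6 at 1.19 ± 0.25 and Col1a2 at 0.78 ± 0.19), 9 of 10 striatal and 5 of 5 cholinergic markers were called higher and none lower, while none of 18 other smooth muscle genes was called (median 0.20). The change of the Q92 effect was also called higher for the other pericyte genes Anpep (0.56 ± 0.13), Ifitm1 (0.97 ± 0.21) and Zic1 (1.84 ± 0.35). The endothelial marker Slco1a4 (0.26 ± 0.078) was called higher there too. For Q140 mice Anpep (0.49 ± 0.13) was called higher in this contrast. The shares of all genes called were 9.63% for Q92 and 1.79% for Q140. Summed meningeal markers were 75.3 to 179 CPM at 6 months and 115 to 225 CPM at 10 months in Q140 mice. At 6 months alone, 1 of 12 meningeal, all 10 striatal and all 5 cholinergic markers were lower in Q140 mice than in wild types and 5 of 10 choroid plexus markers higher. Lhx8 of the cholinergic list and Slc4a5 and Tmem72 of the choroid plexus list are at 0 in some libraries.

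How libraries of the same group varied together was described by correlations of log2 CPM over the 95 libraries after the 24 group means had been removed. All points share the cortical dissection and the depth scaling, so they are given without p-values. The mean of the 3 arterial genes followed that of the other smooth muscle genes (Pearson r = 0.86, Spearman rho = 0.82) and that of the meningeal markers (r = 0.74, rho = 0.71), and less that of the endothelial markers (r = 0.49, rho = 0.42). The values without the 2 libraries farthest from the median were 0.84, 0.72 and 0.47. The mean of the pericyte genes followed the endothelial markers (r = 0.80, rho = 0.74; 0.76 without 2 libraries) and less the meningeal ones (r = 0.45, rho = 0.40). The list of other pericyte genes did not separate the sets. Its mean had r = 0.67 (rho = 0.62) with the arterial mean and r = 0.60 (rho = 0.59) with the pericyte mean. Between the pericyte mean and the other smooth muscle genes r was 0.43. The arterial level had r = 0.07 with striatal and 0.03 with choroid plexus markers.

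**Figure D4:**
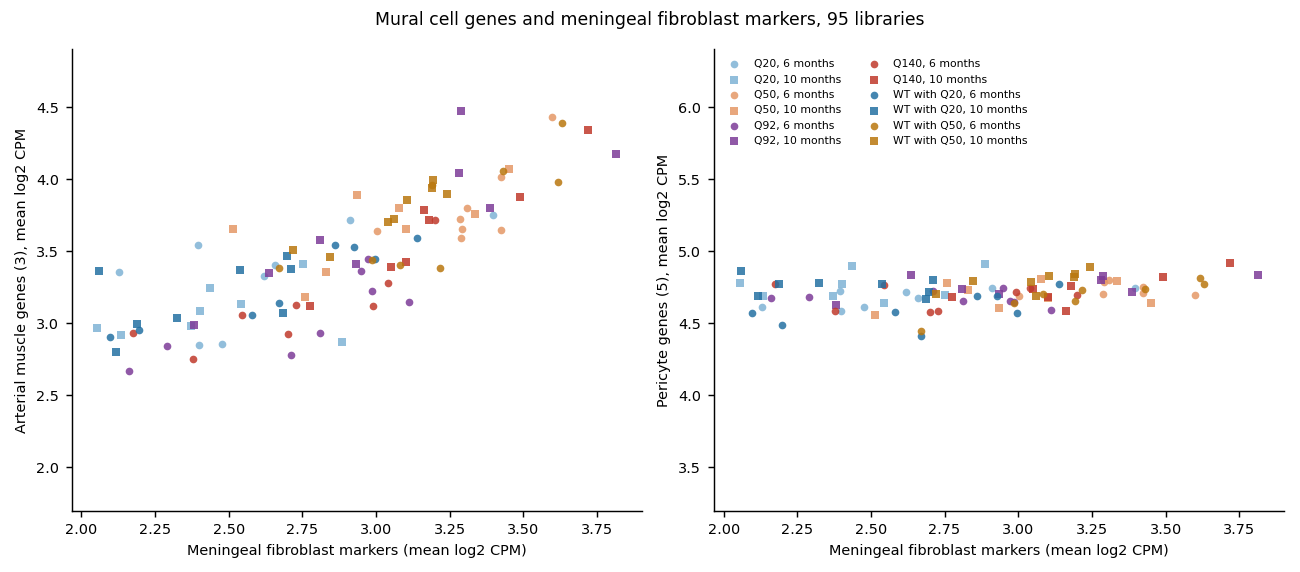
Mean log2 CPM of the 3 arterial genes (left) and of the 5 pericyte genes (right) against the mean log2 CPM of 12 meningeal fibroblast markers, each point 1 of 95 libraries with colours for the groups, and axes of equal span. Libraries with more meningeal marker RNA have more arterial RNA, while the pericyte level stays in a narrow band.

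Between single genes, the arterial pairs had r from 0.78 to 0.93 (3 pairs), with Acta2 and Tagln the closest. Pairs of pericyte genes ran from -0.16 to 0.48 (10 pairs, median 0.29), and pairs of an arterial and a pericyte gene from -0.07 to 0.71 (15 pairs, median 0.25). The highest of these involved Vtn, with r = 0.71 to Tagln, 0.68 to Acta2 and 0.48 to Myh11. Among pericyte genes Vtn had r = 0.41 with Kcnj8, 0.29 with Rgs5 or Pdgfrb and -0.16 with Abcc9. Vtn also stood with the arterial genes in the comparison of Q20 with Q50 mice at 6 months.

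**Figure D5:**
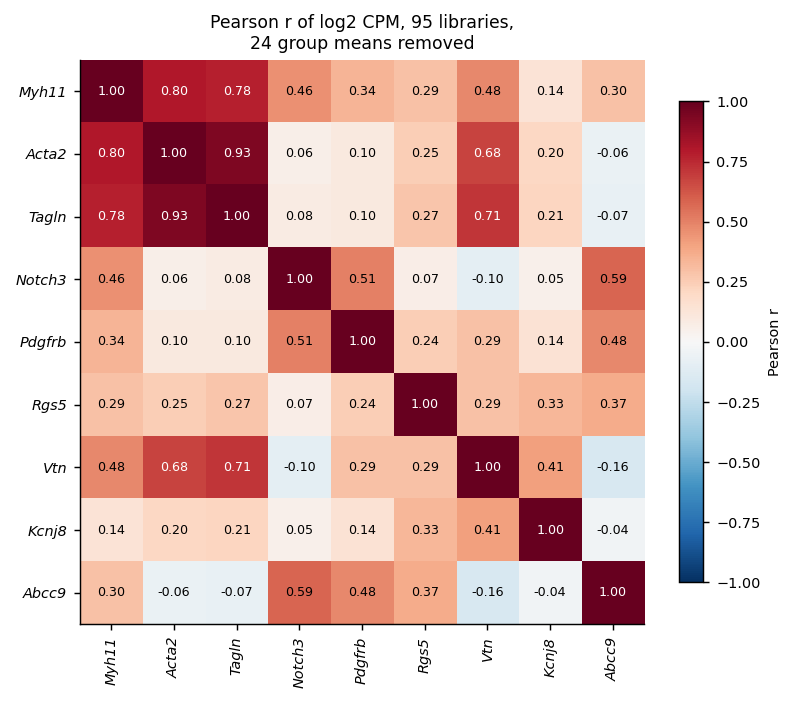
Pearson r of log2 CPM between each pair of the 9 genes (rows and columns, colour scale for r) over 95 libraries after the 24 group means were removed. Myh11, Acta2 and Tagln form a block with r of at least 0.78, and Vtn joins it more closely than it joins the other pericyte genes.

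Among 18187 genes, those most like each member by this measure were as follows. Myh11 was closest to Acta2 (0.80), Tagln (0.78) and the actin-binding caldesmon gene Cald1 (0.76). Acta2 was closest to Tagln (0.93), the matrix protein gene Mgp (0.84) and Ptgds (0.81), which encodes a prostaglandin synthase abundant in meninges. Tagln had Acta2, the myosin light chain gene Myl9 (0.80) and Mgp (0.79). Vtn was closest to Ptgds (0.76), Myl9 (0.75) and the calponin gene Cnn2 (0.74).

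Pdgfrb was closest to the taurine transporter gene Slc6a6 (0.72) and the endothelial receptor genes Kdr (0.71) and Tek (0.69). Abcc9 had Sp1 (0.73) and the endothelial genes Ptprb (0.73) and Flt1 (0.72). The nearest genes of Rgs5 were Gpc6 (0.60), Scd1 (0.53) and Ranbp3l (0.51), and those of Kcnj8 were Elk3 (0.48), Scara3 (0.48) and Cxcl14 (0.46). Notch3 was closest to the basement membrane proteoglycan gene Hspg2, at 0.82, with Prrc2b and Tnrc18 at 0.81. These values leaned on a few libraries. Spearman rho was 0.77 for Hspg2, 0.60 for Prrc2b and 0.67 for Tnrc18. Without the 2 libraries farthest from the median, r was 0.76, 0.73 and 0.74.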

How the data were processed

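Messenger RNA of mouse cortex was measured in 95 libraries. The authors deposited, for each library, estimated counts per gene and FPKM, which are scaled to gene length and library size. CASAVA 1.8.2 is named per the submitters' processing notes. The sources used here give no aligner, counting tool, genome build, annotation or strand setting. Of the nonzero estimated counts 72.9% were whole within 0.001, and all were rounded. Of 39179 Ensembl identifiers 37607 had a symbol.

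Rounded counts were tested in R 4.3.3 with edgeR 4.0.16 (TMM scaling, filterByExpr with a minimum count of 10 and a total of 15, prior count 1, quasi-likelihood test, Benjamini-Hochberg adjustment over all genes tested, threshold 0.05). Each age was fitted on its own over all line, housing and sex groups (17716 genes at 6 months, 17813 at 10 months), age and its interactions over both ages (18187 genes), and trends over the knock-in lines (17504 and 17620 genes, slope per 100 repeats). Line effects were averaged over the sexes. The fit was tested on simulated data. Levels are CPM, scaled to total counts by TMM, and a level of a list is the mean log2 CPM of its genes. Summed counts were 30.3 M to 41.1 M per library, with at least 80 counts behind every value of the 9 genes.

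All 9 genes are named. From each list up to 4 called genes with the smallest p were named, and the 3 genes with the highest Pearson r to each member were taken over the 95 libraries with group means removed. The members and lists were chosen with earlier results of these data known. Alternatives were size factors and the Wald test of DESeq2 1.42.0, voom of limma 3.58.1 with weights per library, other filters, log2 of FPKM plus 0.1 or 1, a factor for the replicate number or for the L code found in sample names, 1 sex, 1 wild-type group, and leaving out libraries. The comparison of Q20 with Q50 mice was added after seeing the data.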

Additional observations from a re-analysis of the deposited data

Results flagged for a closer look

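In 9 of the 108 groups of 1 gene, line and age, a library lay farther from its nearest neighbour than Dixon's test allows at 95%, and chance gives about 1 in 20 groups. Male Q50 replicate 3 at 6 months was high for both Acta2, at 29.27 CPM with the next library at 19.66 CPM, and Tagln, at 15.39 CPM with the next at 11.09 CPM. Female Q140 replicate 4 at 6 months was high for Acta2, at 16.05 CPM with the next at 11.08 CPM.

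Male Q92 replicate 3 at 6 months stood apart for 3 genes in different directions. Its Vtn was high at 75.96 CPM (next 62.61 CPM), while Abcc9 was low at 8.998 CPM (next 14.43 CPM) and Notch3 was low at 10.48 CPM (next 16.5 CPM). Female Q50 replicate 4 at 6 months was high for Vtn at 87.77 CPM (next 73.65 CPM). These are the 2 libraries with a mitochondrial share of counts over 13%, at 13.6% and 14.7%. Abcc9 was also low in female Q50 replicate 3 at 10 months, at 11.14 CPM (next 14.43 CPM), and Notch3 in male Q20 replicate 2 at 6 months, at 15.28 CPM (next 18.79 CPM).

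The effect of the Q92 line differed between the ages by the test of the interaction in edgeR. The log2 difference from wild type was higher at 10 months than at 6 months by 0.8062 for Myh11, 0.7408 for Acta2 and 0.8087 for Tagln.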

How the results depend on the processing

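No called gene changed direction under the alternatives tried, while differences near 0 that were not called did in some. The arterial-minus-pericyte difference changed sign for Q20 against wild type at 6 months (-0.00073, against 0.00036 with log2 of FPKM plus 0.1 and 0.010 with Notch3 among the pericyte genes), and for Q50 at 6 months (0.0078, against -0.017 with Notch3 among the arterial genes) and 10 months (0.0064, against -0.015 with Notch3 among the pericyte genes). Most counts of called members were the same: of the values behind the comparisons 1508 kept their call or size and 90 moved, and of single calls 854 were kept and 105 were lost. For Q92 against wild type at 6 months, 2 members were called, 1 without a filter on low counts or with an L code term, and 0 in females only, in males only or against WTwithQ20 alone. For Q140 at 6 months 0 were called, 1 by the DESeq2 Wald test and 3 against WTwithQ50 alone. At 10 months 0 were called for Q92 and Q140, but 3 and 1 against WTwithQ20 alone. Between the wild-type groups at 10 months 3 were called, 1 without the filter and 0 within either sex. Of 11 alternatives other than leaving out 1 library, the call there was lost in 2 for Myh11, 4 for Acta2 and 3 for Tagln. For Q20 against Q50 at 6 months 2 were called, 1 with DESeq2 size factors, voom, no filter, log2 of FPKM plus 0.1, the L code, without libraries over 13% mitochondrial or in females only, and 0 in males only. At 10 months 0 were called, 2 by the DESeq2 Wald test and 4 by voom. For age in wild types 2 were called, and 1 in males only. For the change of the Q92 effect with age 3 were called, 1 in females only and 0 in males only or against WTwithQ50 alone. The causes were not tested; fits within 1 sex hold fewer samples.

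Leaving out 1 library gave 0 to 3 members for Q92 at 6 months, 0 to 2 for Q140 at 6 months, 1 to 2 for Q20 against Q50 at 6 months, 1 to 4 between the wild-type groups at 10 months, 0 to 1 for Q20 against Q50 at 10 months, 2 to 3 for age in wild types, 2 to 3 for the change of the Q92 effect with age and 0 to 3 for that of Q140. All other comparisons stayed at 0. For Q92 at 6 months, Tagln was lost and Myh11 kept without any 1 of female Q140 replicates 1, 2, 3 and male 4, female Q20 1, 3, female Q50 1, 3 and male 1, female Q92 1, 2 and male 2, 4, WTwithQ20 female 4 and male 1, 3, 4, or WTwithQ50 female 2, 4 and male 1, 4. Both were lost without female Q92 replicate 3, and Myh11 alone without male Q92 replicate 3. Between the wild-type groups at 10 months Myh11 alone was called without WTwithQ20 female 1 or 4 or male 2, or WTwithQ50 male 1 or 4. For Q140 at 6 months, Acta2 and Tagln were called without female Q140 replicate 4, and for the change of the Q140 effect 3 members without that library and 2 without male Q140 replicate 2 at 10 months. For Q20 against Q50 at 10 months Myh11 was called without female Q140 replicate 4 or male Q50 replicate 1. For the same contrast at 6 months Acta2 was lost and Vtn kept without any 1 of female Q140 1, 2, 3 and male 3, 4, female Q20 1, 2, 3, 4 and male 2, 3, female Q50 2, 3, 4 and male 1, 3, female Q92 1, 2, 3 and male 2, 4, WTwithQ20 female 2, 3, 4 and male 1, 3, 4, or WTwithQ50 female 2, 3, 4 and male 4. The change of the Q92 effect for Acta2 lost its call without male Q92 replicate 1 at 10 months (0.58, adjusted p = 0.051 in edgeR).

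Replicate numbers did not pair the libraries: deviations of same-numbered libraries had a median correlation of 0.0058 (13 of 110 pairs over 0.1), beside -0.0045 for other pairs (39 of 330). With the replicate block, Myh11 differed by -0.50 (adjusted p = 0.012 in edgeR) and Tagln by -0.47 (0.029) for Q92 at 6 months, 2 members were called as before, and no count of called members changed by over 1.5 times.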
